A study of Homo sapiens with 18 samples.

Results

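The CLK, SRPK and DYRK splicing kinases were examined through their own splicing in SHEP.tet21n cells, a human neuroblastoma cell line in which doxycycline (Dox) represses a MYCN transgene. The members were CLK1, CLK2, CLK3, CLK4, SRPK1, SRPK2, DYRK1A and DYRK1B. An intron was taken as a member when at least 1 of its splice sites matched an exon boundary of these 8 genes in GENCODE 44 (genome build hg38). This gave 147 introns in 35 clusters, of 233650 introns in the series, and 105 of the 147 were annotated. Intron positions below are the exon bases that the intron joins. The numbers per gene were 14 for CLK1, 3 for CLK2, 15 for CLK3, 18 for CLK4, 20 for SRPK1, 29 for SRPK2, 36 for DYRK1A and 12 for DYRK1B.

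RNA-seq was carried out on 18 libraries in 6 groups of 3. All groups were the same cell line, and all carried the repressible MYCN transgene. The MYCN- libraries received 2 µg/mL Dox and the MYCN+ libraries received DMSO vehicle, so MYCN repression and Dox exposure cannot be told apart. Within each arm, cells were transfected with control siRNA (SNRPD3+) or with SNRPD3 siRNA #1 or #2 (SNRPD3-), and MYCN-/SNRPD3+ served as the wildtype group. SNRPD3 encodes a protein of the Sm ring, the core of the spliceosomal snRNPs. The study describes its replicates as independent biological ones, while the labels only number them and do not name separate cultures, so p-values measure the spread between these libraries. The data used here are splicing measurements, so neither MYCN repression nor SNRPD3 knockdown was checked by expression level.

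SR proteins are splicing factors whose activity depends on phosphorylation of their arginine-serine repeats. SRPK1 and SRPK2 phosphorylate these repeats mainly in the cytoplasm, which promotes entry of SR proteins into the nucleus. CLK1 to CLK4 act in the nucleus and release SR proteins from storage in speckles. DYRK1A and DYRK1B are related kinases that also phosphorylate splicing factors, among many other substrates. CLK transcripts that skip exon 4 lose the reading frame before the kinase domain, and CLK1 is a textbook case of a splicing kinase whose own exon 4 responds to SR protein phosphorylation.

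Exon 4 is shown first because a CLK transcript that skips it loses the reading frame of the full kinase. The sequences below were read from hg38 in the direction of transcription, with the exon in capitals and the adjoining 10 intron bases on each side in lower case. CLK1 exon 4 lies at chr2:200860125-200860215 on the minus strand, CLK4 exon 4 at chr5:178617344-178617434 on the minus strand, and CLK3 exon 4 at chr15:74622120-74622216 on the plus strand. All 3 are coding.
CLK1 exon 4: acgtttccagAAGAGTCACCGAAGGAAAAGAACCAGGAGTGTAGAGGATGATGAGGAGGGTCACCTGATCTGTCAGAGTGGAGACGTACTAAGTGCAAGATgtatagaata
CLK4 exon 4: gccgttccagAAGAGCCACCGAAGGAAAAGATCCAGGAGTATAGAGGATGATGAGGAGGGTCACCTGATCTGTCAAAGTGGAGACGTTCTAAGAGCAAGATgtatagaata
CLK3 exon 4: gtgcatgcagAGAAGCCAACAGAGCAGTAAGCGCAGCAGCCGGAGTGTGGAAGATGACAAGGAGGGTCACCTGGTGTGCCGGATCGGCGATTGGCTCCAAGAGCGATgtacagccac

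The CLK1 and CLK4 exons were both 91 bases long and shared 85 of 91 bases (93.4%), so the 2 genes are near-identical here and their junction reads could be confused, which was not tested. The CLK3 exon had 97 bases. Neither length is a multiple of 3. Read on the Ensembl canonical transcript, CLK1 without exon 4 reached a stop codon in exon 5 after 136 codons, against 484 codons in the full reading frame. CLK4 without exon 4 stopped in exon 5 after 143 of 481 codons and CLK3 in exon 6 after 152 of 490 codons. In CLK1 this stop lay 809 bases upstream of the last exon junction, and the only annotated transcript with the CLK1 skipping intron (chr2:200859746-200861238) was classed as a target of nonsense-mediated decay. The deposited PSI of an intron is its share of the reads spliced in its cluster, a group of introns that share splice sites. From it, the skipping share was computed as the PSI of the skipping intron divided by the sum of this PSI and the mean PSI of the introns on both sides of the exon. PSI and share count spliced reads only. Retention of the introns beside exon 4 was therefore not measured, nor was the amount of full-length CLK transcript.

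CLK1 exon 4 was skipped at nearly the same share in all 6 groups. In the 3 MYCN-/SNRPD3+ libraries the skipping share was 24.7%, 26.8% and 33.8%, and in the 3 MYCN+/SNRPD3+ libraries 24.2%, 25.3% and 31.5%. In MYCN-/SNRPD3- it was 28.2%, 33.7% and 26.4% with siRNA #1 and 31.0%, 28.4% and 27.3% with siRNA #2. In MYCN+/SNRPD3- it was 26.5%, 31.8% and 25.2% with siRNA #1 and 25.03%, 29.2% and 33.3% with siRNA #2. Every pair of groups overlapped, and the range within either SNRPD3+ group was wider than the differences between group means.

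The group means of the CLK1 share lay between 26.98% ± 3.94 (SD, n = 3) in MYCN+/SNRPD3+ and 29.4% ± 3.79 (SD, n = 3) in MYCN-/SNRPD3- siRNA #1. MYCN+/SNRPD3+ differed from wildtype by -1.44 percentage points (two-sided exact permutation test, p = 0.60, where 0.10 is the smallest p that 3 against 3 libraries allow). SNRPD3- differed from SNRPD3+ by 0.737 percentage points with MYCN repressed (two-sided exact permutation test, 6 against 3 libraries, p = 0.762). With MYCN expressed the difference was 1.53 percentage points (p = 0.524 in the same exact test, 6 against 3 libraries). In the limma fit over all 18508 tested cassette exons, the effect of SNRPD3 knockdown over all libraries was 0.08 ± 0.15 (SE) on the log2 odds scale, with a 95% interval from -0.24 to 0.40. A unit on this scale is a factor of 2 in the odds of skipping. The interaction of knockdown with MYCN was 0.05 ± 0.30 (SE), with an adjusted p of 1.00 from limma.

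**Figure D1:**
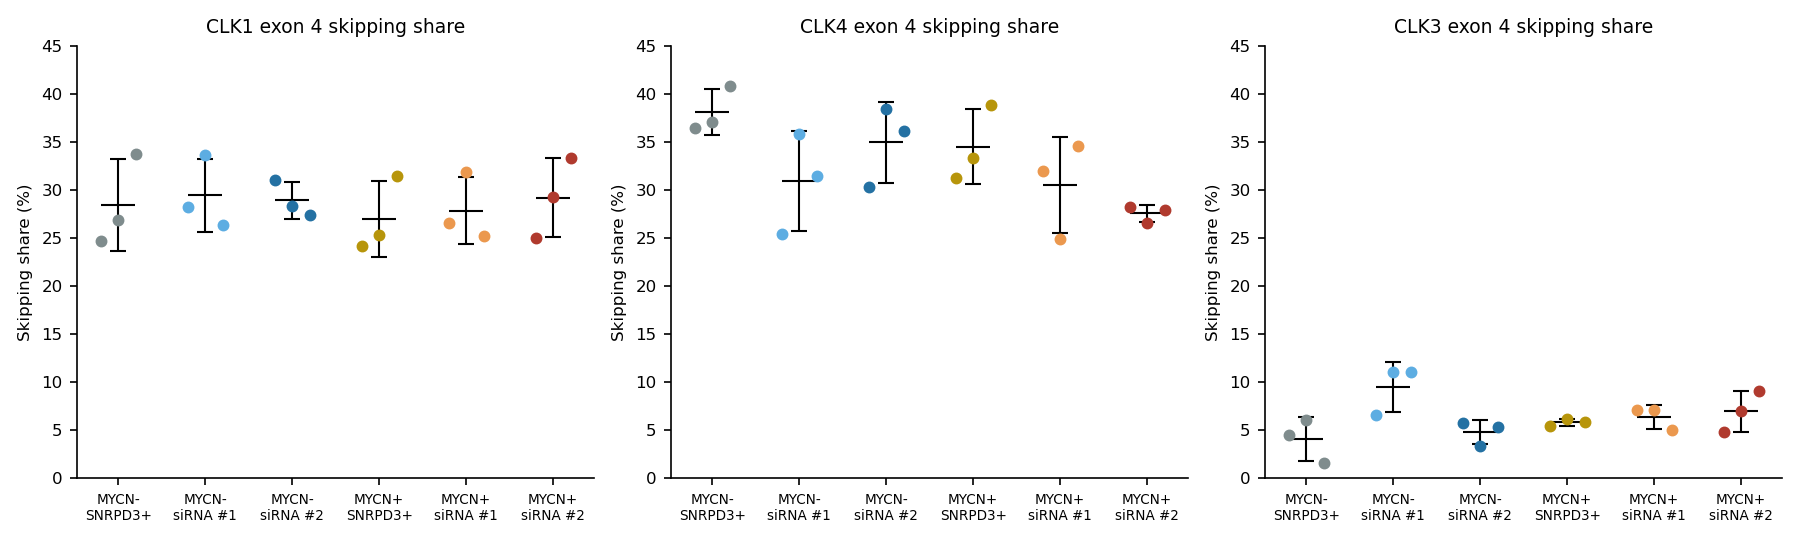
Skipping share of exon 4 in CLK1, CLK4 and CLK3, in percent, for each of the 18 libraries by group. Points are libraries, horizontal marks are group means and bars are SD. The CLK1 means stay between 26.98% and 29.4%, the CLK4 points of wildtype lie above all 6 MYCN+/SNRPD3- points, and CLK3 stays at or below 11.04%.

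CLK4, the closest relative of CLK1, skipped exon 4 more often than CLK3 in every library. Its skipping share was 36.4%, 37.0% and 40.8% in wildtype and 31.3%, 33.3% and 38.8% in MYCN+/SNRPD3+. With siRNA #1 it was 25.4%, 35.8% and 31.4% in MYCN- cells and 32.0%, 24.9% and 34.5% in MYCN+ cells. With siRNA #2 it was 30.3%, 38.4% and 36.1% in MYCN- cells and 28.2%, 26.6% and 27.9% in MYCN+ cells. The wildtype libraries lay above all 6 MYCN+/SNRPD3- libraries, with no overlap. This contrast was -0.58 ± 0.21 (SE) on the log2 odds scale, with an adjusted p of 0.118 from limma, so it did not pass the threshold of 0.05. For knockdown over all libraries the difference was -0.34 ± 0.15 (SE) and the adjusted p from limma was 0.293. The negative sign means less skipping in SNRPD3- libraries, while the median over all tested cassette exons was 0.21 in the direction of more skipping.

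CLK3 exon 4 was rarely skipped. The share was 4.52%, 6.06% and 1.57% in wildtype, 5.47%, 6.21% and 5.85% in MYCN+/SNRPD3+, and 6.54%, 11.04% and 11.03% in MYCN-/SNRPD3- siRNA #1. The siRNA #1 libraries of the MYCN- arm were above all wildtype libraries, whereas the siRNA #2 libraries of the same arm (5.74%, 3.38% and 5.30%) overlapped with wildtype. In MYCN+/SNRPD3- the share was between 4.77% and 9.08%. Knockdown with MYCN repressed gave 0.77 ± 0.32 (SE) on the log2 odds scale and an adjusted p of 0.740 from limma. Over the 18 libraries, which share their library preparation, the CLK1 exon 4 share correlated with that of CLK3 at r = 0.18 and with that of CLK4 at r = 0.04, given here as a description.

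CLK2 could not be read in the same way. Its only cluster held the skipping intron of exon 4 (chr1:155268359-155269488) and a pair of introns that enter exon 4 at acceptors chr1:155268795 and chr1:155268792, with no intron leaving the exon. The 3 introns took only 9 different values in 18 libraries. The PSI of the skipping intron was 66.2%, 33.3% and 98.6% in wildtype and 48.3%, 25.3% and 25.3% in MYCN+/SNRPD3+. Libraries of 1 group thus spanned most of the possible range, and the largest difference of this intron in the limma fit was -2.82 ± 1.90 (SE) for MYCN alone, with an adjusted p of 0.951.

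Among the 147 introns, 94 had a mean PSI from 1% to 99% and entered the fit. None passed the threshold in the 6 comparisons of the design. For MYCN alone, limma called 0 of 94 member introns against 0.0543% of the 152722 introns tested, and 4 of 94 had an unadjusted p under 0.05 (6.19% of all introns). For SNRPD3 knockdown it called 0 of 94 with MYCN repressed (background 0.0138%, 3 with an unadjusted p under 0.05 against 4.69% of all introns) and 0 of 94 with MYCN expressed (background 0.0196%, 4 under 0.05 against 7.06%). For MYCN and SNRPD3 knockdown together against wildtype, limma called 0 of 94 against 0.559% of all introns. There, 11 of 94 members (11.7%) had an unadjusted p under 0.05, as had 16728 of the 152722 tested introns (11%). The interaction gave 0 of 94 calls (background 0.0177%, 4 under 0.05 against 3.98%) and knockdown over all libraries 0 of 94 (background 0.0242%, 7 under 0.05 against 7.8%). At these backgrounds fewer than 1 call among 94 introns would be found, so the counts of 0 do not set the kinases apart.

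In the median, differences in the kinases were no larger than those over all introns. The median absolute difference of the 94 introns was 0.21 on the log2 odds scale for MYCN alone, against 0.30 over all tested introns. It was 0.12 for knockdown with MYCN repressed, against 0.25, and 0.18 for knockdown with MYCN expressed, against 0.29. In percentage points, the 82 tested members with a different value in every library had a median distance of 2.88 between their lowest and highest group mean, and 64 of the 82 stayed under 5 points. The largest distance was 5.94 points in CLK1, 5.14 in CLK3, 4.77 in SRPK1 and 5.80 in SRPK2. Larger ones among these 82 were in DYRK1B (15.4 points), CLK4 (12.1 points) and DYRK1A (10.4 points). All 4 DYRK1B introns among the 82 lay between 10.9 and 15.4 points. They are successive introns on both sides of exon 4 or exon 7. The introns over these exons had mean PSI of 0.381% and 0.452%, so such a PSI mainly compares reads at successive junctions. The other 12 tested members, in CLK2, SRPK2 and DYRK1B, repeated values between libraries, and the number of reads behind them is unknown.

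**Figure D2:**
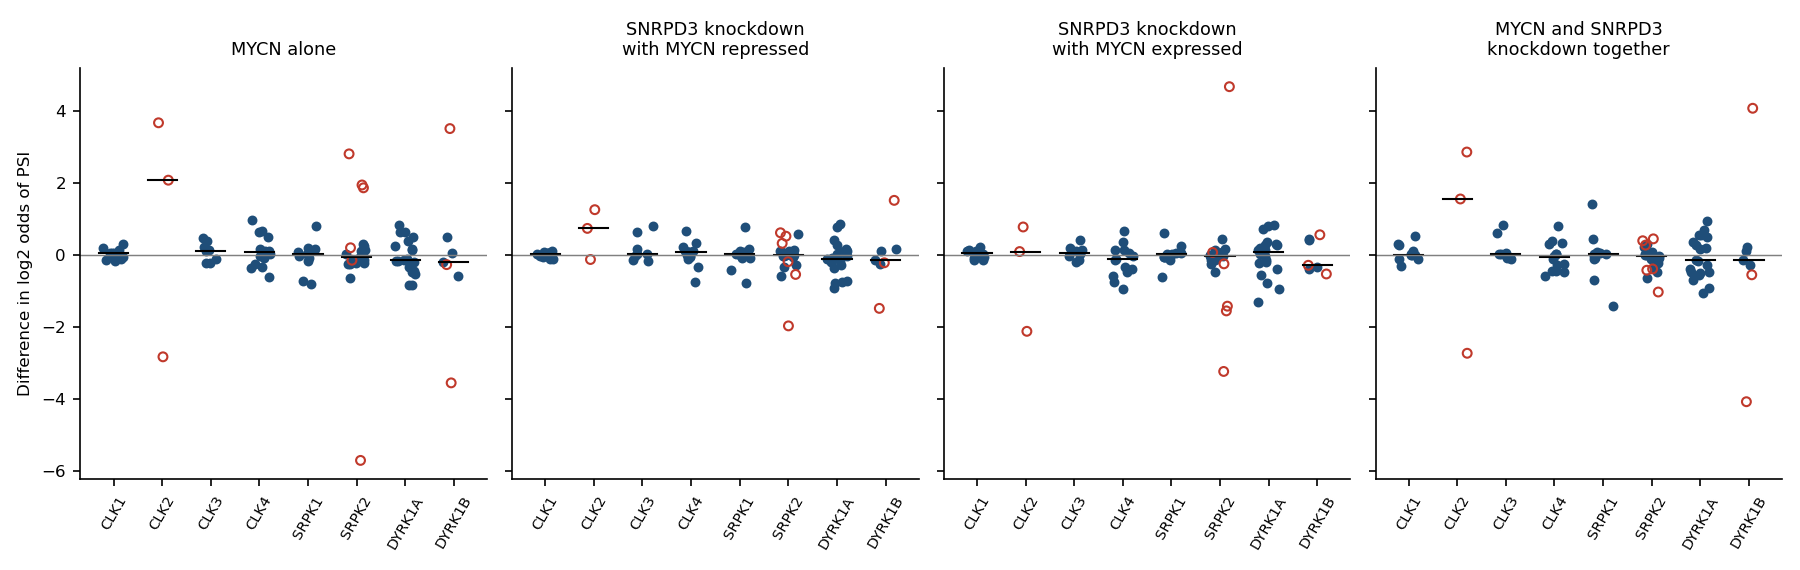
Difference in log2 odds of PSI for each of the 94 tested introns by gene, in 4 comparisons. Filled points are the 82 introns with 18 different values, open red points the 12 with repeated values, and black lines the medians per gene. The widest differences, in CLK2, SRPK2 and DYRK1B, are open points, and the medians of the other genes lie near 0.

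Of 21 annotated cassette exons in the members, 19 had a mean skipping share from 1% to 99%. limma called 0 of 19 for MYCN alone (background 0.0324% of 18508), with 0 of 19 at an unadjusted p under 0.05 (8.16% of all tested exons). It called 0 of 19 for knockdown with MYCN repressed (background 0.0%, 1 under 0.05 against 6.45%) and 0 of 19 for knockdown with MYCN expressed (background 0.0378%, 2 under 0.05 against 13.1%). MYCN and knockdown together gave 0 of 19 against a background of 5.68%, with 4 of 19 at an unadjusted p under 0.05 (22.3% of all tested exons). The interaction (background 0.0%, 0 of 19 under 0.05 against 4.14%) and knockdown over all libraries (background 0.0%, 1 of 19 under 0.05 against 15.3%) also gave 0 of 19. In the latter, 14 of 19 member exons were skipped at a higher share in SNRPD3- libraries, with a median of 0.21 on the log2 odds scale, and 71.1% of all tested exons lay in this direction, with a median of 0.21. The count and median of the 19 exons were thus close to those over all cassette exons, and CLK4 exon 4 was among the 5 that lay in the other direction.

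SRPK1 phosphorylates SR proteins in the cytoplasm. A comparison of all 9 MYCN+ with all 9 MYCN- libraries, added after the others had been seen, called 1 of 94 member introns, against 1.23% of all introns tested, so the share among members was near the background. For cassette exons this comparison called 0 of 19 (background 4.85%, 2 under 0.05 unadjusted in limma against 21.3% of all tested exons). The called intron, chr6:35891013-35920065 on the minus strand, joins exon 3 to a longer form of exon 2 (464 bases in the annotated transcript, against 61 in the canonical one) and is annotated in a protein-coding transcript. Its PSI was 1.79%, 2.18% and 3.49% in wildtype, 1.17%, 2.17% and 2.43% in MYCN-/SNRPD3- siRNA #1, and 5.40%, 4.36% and 2.89% in MYCN-/SNRPD3- siRNA #2. It was 1.196%, 1.27% and 0.826% in MYCN+/SNRPD3+, 1.19%, 1.51% and 1.44% in MYCN+/SNRPD3- siRNA #1, and 0.98%, 0.47% and 1.46% in MYCN+/SNRPD3- siRNA #2. The MYCN+ libraries were lower, and the arms overlapped only through the lowest MYCN-/SNRPD3- siRNA #1 library. The difference was -0.82 ± 0.15 (SE) on the log2 odds scale, with an adjusted p of 0.0188 from limma, and the adjusted p was 0.0858 when PSI was fitted without the log odds transformation. For MYCN alone, in the 6 SNRPD3+ libraries, it was -0.73 ± 0.26 (SE) with an adjusted p of 0.634.

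The main SRPK1 route in this cluster, from canonical exon 2 to exon 3 (chr6:35891013-35920468), had a group mean PSI between 86.1% ± 0.97 and 90.9% ± 1.66 (SD, n = 3). A 96-base alternative exon between them (chr6:35904879-35904974) was skipped at 95.6% to 98.1% in the 18 libraries. An unannotated intron (chr6:35872728-35886009) runs from a site between exons 6 and 7 to exon 8 and passes over canonical exon 7. Together with the exon 7 to exon 8 intron, the only other one in its cluster, it had the smallest p of the members for MYCN and knockdown together. Its PSI was 0.555% ± 0.597 in wildtype, 1.58% ± 0.20 in MYCN+/SNRPD3+, 2.59% ± 0.70 in MYCN+/SNRPD3- siRNA #1 and 3.37% ± 1.41 in MYCN+/SNRPD3- siRNA #2 (SD, n = 3). In MYCN-/SNRPD3- it was 1.63% ± 0.83 and 1.92% ± 1.65 (SD, n = 3) with siRNA #1 and #2. Against wildtype, MYCN and knockdown together gave 1.43 ± 0.42 (SE) on the log2 odds scale, with an adjusted p of 0.163 from limma.

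SRPK2, the paralog of SRPK1, has a pair of coding exons of equal length ahead of exon 16, its last. They are printed here because the choice between them changes the encoded protein. Exon 15 of the canonical transcript lies at chr7:105126248-105126340 and the alternative exon at chr7:105125782-105125874, both on the minus strand. Both have 93 bases, a whole number of codons, and they share 57 of 93 bases (61.3%). Capitals mark the exon and lower case the adjoining 10 intron bases on each side.
SRPK2 exon 15: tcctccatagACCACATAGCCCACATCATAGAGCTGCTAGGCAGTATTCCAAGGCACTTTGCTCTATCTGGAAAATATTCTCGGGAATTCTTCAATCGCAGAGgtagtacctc
SRPK2 alternative exon: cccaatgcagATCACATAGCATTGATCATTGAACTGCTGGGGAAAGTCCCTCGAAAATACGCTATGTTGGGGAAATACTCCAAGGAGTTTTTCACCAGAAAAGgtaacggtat

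Exon 15 was the preferred form in every library. The intron from exon 15 to exon 16 (chr7:105118022-105126248) had a PSI of 28.2% ± 1.23 in wildtype, 27.5% ± 1.70 and 28.2% ± 1.43 in MYCN-/SNRPD3- siRNA #1 and #2, 30.3% ± 1.14 in MYCN+/SNRPD3+, and 27.7% ± 1.57 and 29.1% ± 1.76 in MYCN+/SNRPD3- siRNA #1 and #2 (SD, n = 3). The intron from the alternative exon to exon 16 (chr7:105118022-105125782) had a PSI between 5.46% and 8.29% in the 18 libraries. The intron that joins both exons to each other (chr7:105125874-105126248) stayed between 0.85% and 2.09%. It was the SRPK2 intron with the smallest unadjusted p for knockdown over all libraries, at 1.64% ± 0.31 in the 6 SNRPD3+ libraries and 1.29% ± 0.23 in the 12 SNRPD3- libraries (SD), a difference of -0.21 ± 0.10 (SE) on the log2 odds scale with an adjusted p of 0.641 from limma. The widest SRPK2 distance between groups was in a cluster with only 14 different values (chr7:105117511-105117708), whose 3 wildtype libraries were at 97.7%, 98.99% and 67.03% and whose 3 MYCN+/SNRPD3+ libraries were at 1.40%, 45.6% and 51.5%. For MYCN alone this intron had an adjusted p of 0.826 from limma.

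**Figure D3:**
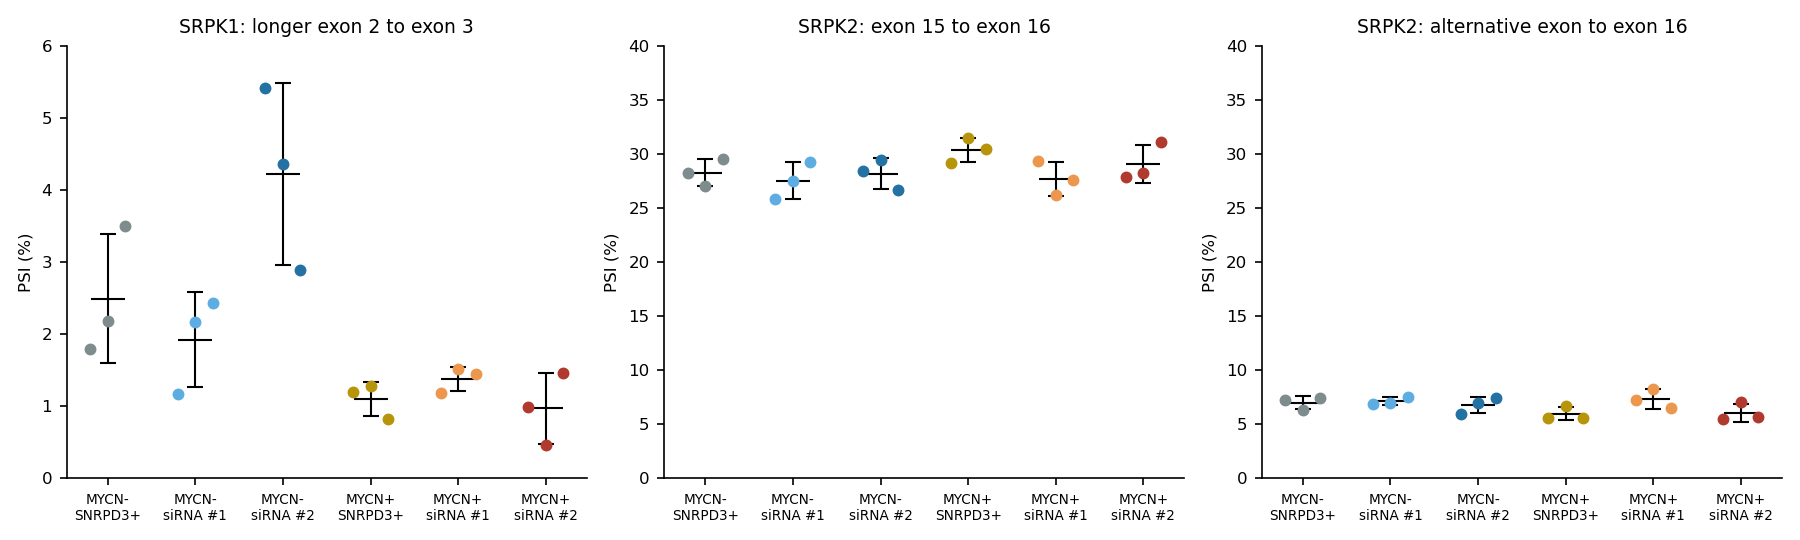
PSI in percent for each of the 18 libraries by group, for the SRPK1 intron from the longer exon 2 to exon 3 and for the SRPK2 introns that leave exon 15 or the alternative exon for exon 16. Points are libraries, horizontal marks group means and bars SD. The SRPK1 values of the MYCN+ groups are at or below 1.51%, and the SRPK2 exon 15 intron stays above the alternative one in every library.

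DYRK1A can start exon 4 at its canonical acceptor or at an upstream one that adds 27 bases (chr21:37478181-37478207, plus strand), a whole number of codons, and both forms are annotated in protein-coding transcripts. An unannotated acceptor further upstream (intron chr21:37472880-37478162) had a PSI between 0.0268% and 5.05%, with a median of 2.24%. DYRK1B, on the minus strand, can likewise start exon 9 at its canonical acceptor or 120 bases further in, both annotated in protein-coding transcripts, and the stretch of 120 bases (chr19:39826868-39826987) is also a whole number of codons. These stretches are shown in capitals because the PSI values below say how often they were kept, with 10 adjoining bases on each side in lower case.
DYRK1A exon 4 extension: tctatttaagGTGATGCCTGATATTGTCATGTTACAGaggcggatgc
DYRK1B exon 9 first part: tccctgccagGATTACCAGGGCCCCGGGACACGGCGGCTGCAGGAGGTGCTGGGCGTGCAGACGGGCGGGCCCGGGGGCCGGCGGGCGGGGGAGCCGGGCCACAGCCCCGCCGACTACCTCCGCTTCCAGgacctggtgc

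The DYRK1A extension was highest in MYCN+/SNRPD3+. The PSI of its intron (chr21:37472880-37478181) was 22.8%, 28.9% and 21.7% in this group and 24.7%, 13.3% and 18.7% in wildtype. In MYCN-/SNRPD3- it was 12.3%, 15.6% and 16.3% with siRNA #1 and 10.4%, 15.6% and 20.2% with siRNA #2. In MYCN+/SNRPD3- it was 15.01%, 18.4% and 11.2% with siRNA #1 and 22.5%, 10.2% and 9.38% with siRNA #2. Of the 6 MYCN+/SNRPD3- libraries, 5 lay below all MYCN+/SNRPD3+ libraries, and 1 siRNA #2 library was among them. Knockdown with MYCN expressed gave -0.95 ± 0.34 (SE) on the log2 odds scale, with an unadjusted p of 0.0151 and an adjusted p of 0.559 from limma. With MYCN repressed it gave -0.36 ± 0.34 (SE), and the interaction of -0.59 ± 0.48 (SE) had an adjusted p of 1.00 from limma.

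The DYRK1A intron with the smallest unadjusted p for knockdown over all libraries was chr21:37420384-37421774, which joins exon 2 to an alternative exon that lies ahead of exon 3 and is noncoding in the annotation. Its PSI was 4.53% ± 2.15 in the 6 SNRPD3+ libraries and 7.51% ± 1.79 in the 12 SNRPD3- libraries (SD). The SNRPD3+ libraries ranged from 1.76% to 6.59% and the SNRPD3- libraries from 5.26% to 12.1%, with overlap. The difference was 0.75 ± 0.25 (SE), with an adjusted p of 0.426 from limma. The cassette exon of DYRK1A with the smallest unadjusted p in this comparison (chr21:37430269-37430400) was skipped at 89.8% ± 4.47 and 92.3% ± 3.82 in these sets of libraries, with an adjusted p of 0.540.

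In DYRK1B, the acceptors of exon 9 varied widely between libraries. The PSI of the intron that keeps the 120 bases (chr19:39826987-39827285) was 46.2%, 38.01% and 33.6% in wildtype and 99.4%, 64.0% and 78.9% in MYCN+/SNRPD3+, without overlap. In MYCN-/SNRPD3- it was 49.96%, 67.1% and 59.7% with siRNA #1 and 49.98%, 61.3% and 90.9% with siRNA #2. In MYCN+/SNRPD3- it was 99.3%, 82.6% and 52.6% with siRNA #1 and 99.2%, 99.2% and 66.4% with siRNA #2. Over all libraries, the 9 MYCN- values had a median of 49.98% and the 9 MYCN+ values a median of 82.6%, and the arms overlapped from 52.6% to 90.9%. MYCN alone gave 3.51 ± 1.66 (SE) on the log2 odds scale, with an adjusted p of 0.816, and all 9 MYCN+ against all 9 MYCN- libraries gave 2.88 ± 0.96 (SE) with an adjusted p of 0.209, both from limma. An annotated exon of 36 bases begins at the same acceptor, and the intron from its end to the inner acceptor (chr19:39826867-39826952) had a PSI between 0.104% and 7.36%. This cluster had 17 different values in 18 libraries, and the number of reads behind it is unknown. Wide distances were not limited to exon 9, as the DYRK1B introns beside exons 4 and 7 also differed by 10.9 to 15.4 points between group means.

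**Figure D4:**
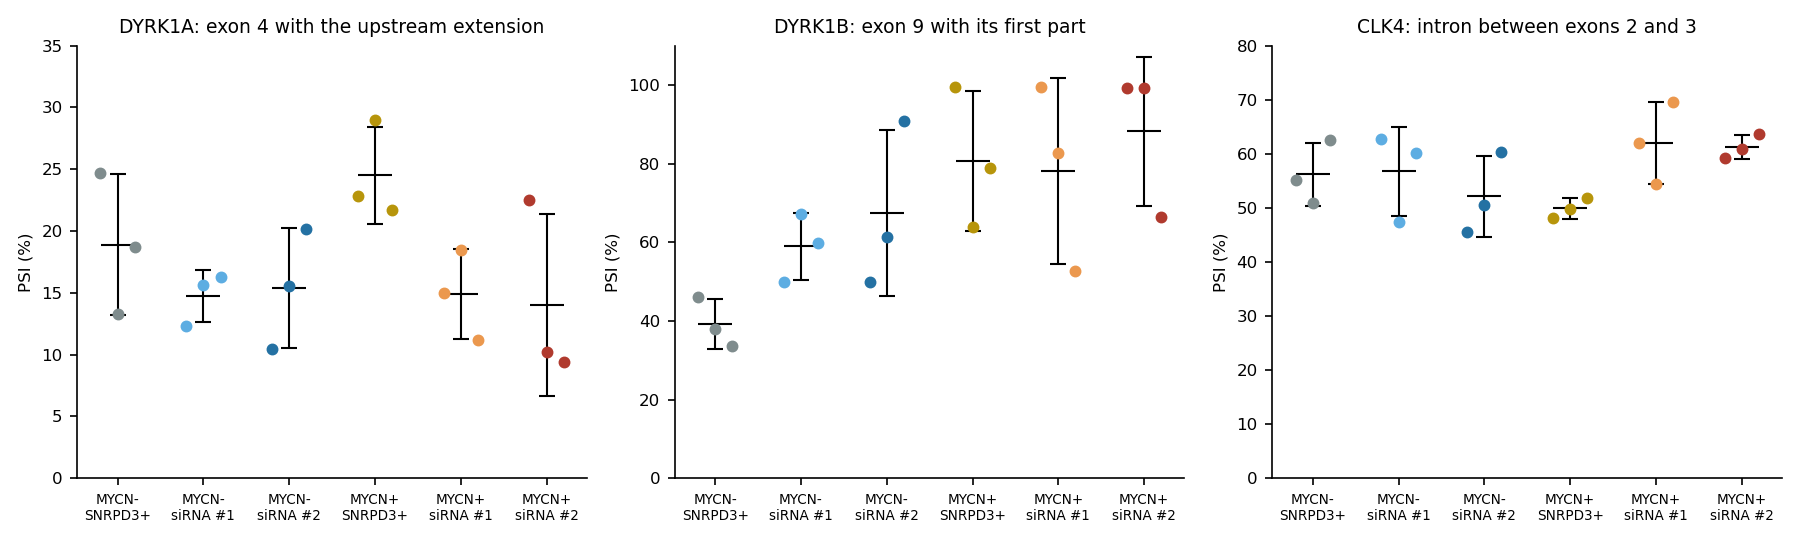
PSI in percent for each of the 18 libraries by group, for the DYRK1A intron that adds 27 bases to exon 4, the DYRK1B intron that keeps the first 120 bases of exon 9, and the CLK4 intron between exons 2 and 3. Points are libraries, horizontal marks group means and bars SD. DYRK1A is highest in MYCN+/SNRPD3+, DYRK1B is lowest in wildtype, and the CLK4 points of MYCN+/SNRPD3- lie above those of MYCN+/SNRPD3+.

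In CLK4, the intron between exons 2 and 3 (chr5:178618778-178623256) had the widest distance between group means in this gene. It shares splice sites with introns of several alternative exons. A 59-base one (chr5:178619838-178619896) is not coding in any annotated transcript. An 836-base one (chr5:178619838-178620673), in part coding in the annotation, ends at the same site. The intron from this site to exon 3 had a mean PSI of 23.8%, and the intron from exon 2 into the 59-base exon 10.1%. The PSI of the intron between exons 2 and 3 was 48.0%, 49.8% and 51.8% in MYCN+/SNRPD3+, 62.0%, 54.5% and 69.6% in MYCN+/SNRPD3- siRNA #1, and 59.2%, 60.9% and 63.6% in MYCN+/SNRPD3- siRNA #2. All 6 knockdown libraries of the MYCN+ arm lay above the 3 controls. In the MYCN- arm it was 56.2% ± 5.87 in wildtype and 56.7% ± 8.23 and 52.1% ± 7.47 (SD, n = 3) with siRNA #1 and #2, with overlap. Knockdown with MYCN expressed gave 0.68 ± 0.25 (SE) on the log2 odds scale with an adjusted p of 0.574, and the interaction gave 0.78 ± 0.36 (SE) with an adjusted p of 1.00, both from limma.

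In CLK1, the widest distance between group means was in the intron from exon 2 to exon 3 (chr2:200861466-200861702), at 55.8% ± 5.64 in wildtype and 49.8% ± 3.59 in MYCN+/SNRPD3- siRNA #1 (SD, n = 3). Most other reads of this cluster were at the intron from exon 1 to exon 2 (mean PSI 45.6%), while the intron over exon 2 had 0.447%. This PSI therefore mainly compares reads at successive junctions and is not a choice between splice forms. An unannotated CLK1 intron that leaves out exon 7 (chr2:200856985-200857973), chosen here after its values were seen, had a PSI of 3.67% ± 1.06 in the 9 MYCN- libraries and 5.12% ± 1.06 in the 9 MYCN+ libraries (SD), with an adjusted p of 0.235 from limma. In CLK3, the intron with the smallest p for knockdown over all libraries, from exon 1 to exon 2 (chr15:74615898-74619197) held 97.4% to 99.98% of its cluster in the 18 libraries. Across the 8 genes, 23 member introns left out at least 1 whole canonical exon and 11 of these were not annotated.

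Beyond exon 4, the canonical exon with the highest skipping share among the annotated cassettes was SRPK2 exon 15, described above. Its share was 19.4% ± 2.95 (SD, n = 18), with libraries between 12.6% and 27.1%. The flanking introns in this share are the one from exon 14 (mean PSI 30.5%) and the one to the alternative exon (1.40%). The main exit, to exon 16 (28.5%), is left out, so the share is inflated and not comparable with those of exon 4. The skipping intron itself had a mean PSI of 3.84%. Exon 2 of CLK1 was skipped at 0.897% ± 0.734 and exon 10 of CLK3 at 0.554% ± 0.360 over the 18 libraries (SD), both under the limit for testing. Exon 10 of CLK4 was skipped at 1.80% ± 1.56 and exon 10 of SRPK1 at 1.16% ± 0.66 (SD, n = 18). For exon 4, whose flanking introns both join canonical exons, the share was 28.5% ± 3.29 in CLK1 and 32.7% ± 4.84 in CLK4 (SD, n = 18). Among alternative exons outside the canonical transcripts, most were skipped in the majority of reads, such as a 64-base coding exon of SRPK2 (chr7:105268806-105268869) at 81.7% ± 4.15 and a 41-base exon of CLK4 (chr5:178605825-178605865) at 98.1% ± 1.32 (SD, n = 18). Exon 2 of DYRK1A, which is noncoding in part, was skipped at 9.63% ± 6.24 (SD, n = 18), with libraries between 0.0991% and 22.8%.

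The genes whose cassette exon followed the CLK1 exon 4 share most closely over the 18 libraries, among 5174 genes compared, were TCF7L2 (r = 0.76), PLA2G6 (r = 0.74), CDKN2B-AS1 (r = 0.72), EME1 (r = 0.69) and ZNF559 (r = 0.68). These values describe the libraries and rank the genes only.

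A list of 36 other genes of SR protein phosphorylation held 16 SR substrates, 13 further kinases and 7 phosphatases and transport factors. Of these, 34 had tested introns, 322 in all. limma called 0 of 322 in each of the 6 comparisons of the design. For MYCN and knockdown together, where 0.559% of all introns were called, 71 of 322 (22.05%) had an unadjusted p under 0.05, against 11% of all introns. By class these were 44 of 139 in SR substrates (31.65%), 21 of 149 in further kinases (14.1%) and 6 of 34 in phosphatases and transport factors (17.65%). For the interaction 3 of 322 (0.932%) had a p under 0.05, against 3.98%. For MYCN alone it was 14 of 322 (4.35%), against 6.19%, and for knockdown with MYCN repressed 11 (3.42%), against 4.69%. For knockdown with MYCN expressed it was 28 (8.70%), against 7.06%, and for knockdown over all libraries 39 (12.1%), against 7.8%. For the 42 tested cassette exons of 21 listed genes limma also called 0 in each of the 6. For MYCN and knockdown together, where 5.68% of all cassette exons were called, 19 of 42 (45.2%) had an unadjusted p under 0.05, against 22.3% of all cassette exons. Of the 30 exons of SR substrates, 15 did. For the interaction it was 1 of 42, against 4.14%. For MYCN alone it was 2 of 42 (4.76%), against 8.16%, and for knockdown with MYCN repressed 2 (4.76%), against 6.45%. For knockdown with MYCN expressed it was 9 (21.4%), against 13.1%, and for knockdown over all libraries 6 (14.3%), against 15.3%. The listed genes were chosen with results known, and these shares were not tested against those over all genes. The median difference of the 42 for MYCN and knockdown together was 0.41 on the log2 odds scale, against 0.33 over all tested cassette exons and 0.28 over the 19 of the members. In the comparison of all 9 MYCN+ with all 9 MYCN- libraries, 3 of 322 introns passed, against 1.23% of all introns. An intron of HIPK3, a kinase of the DYRK superfamily, was higher in MYCN+ by 1.38 ± 0.24 (SE) on the log2 odds scale, with an adjusted p of 0.0152 from limma. Its mean PSI with control siRNA, siRNA #1 and siRNA #2 was 0.876%, 2.16% and 0.0478% in MYCN- groups. In MYCN+ groups it was 4.35%, 2.35% and 4.18% in the same order, so the siRNA #1 groups were close and the values were low. An intron of PPP1CB, a catalytic subunit of protein phosphatase 1, was higher by 0.95 ± 0.08 (SE), with an adjusted p of 0.000135 from limma. Its group means in this order were 2.73%, 1.34% and 1.71% in MYCN- and 4.17%, 4.17% and 4.89% in MYCN+. An intron of TRA2A, an SR-like splicing factor, was lower, at -0.44 ± 0.10 (SE) with an adjusted p of 0.0445 from limma. Its group means were 5.72%, 5.19% and 5.20% in MYCN- and 3.78%, 3.34% and 4.19% in MYCN+.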

How the data were processed

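RNA from the 18 SHEP.tet21n libraries was sequenced after TruSeq Stranded mRNA preparation. The submitters' processing notes name STAR 2.5.0a, SAMtools 1.3.1 and hg38, and per the methods introns were clustered with leafcutter. The authors deposited the PSI of each intron as a fraction from 0 to 1 that sums to 1 within a cluster. No value is exactly 0 or 1, and the table gives no read numbers, so depth is unknown and no counting interval was computed. A deposited table of the authors' own pairwise comparisons (FDR and difference in PSI) was not used.

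Introns were matched to GENCODE 44. limma 3.58.1 (R 4.3.3) was fitted to log2((PSI + 0.01)/(1 - PSI + 0.01)) of the introns with mean PSI from 0.01 to 0.99, with all 6 groups in 1 fit and both siRNAs averaged, and to the skipping share of cassette exons. Adjusted p-values are Benjamini-Hochberg over all tested features, with a threshold of 0.05. The fit was also run on simulated data with shifts far larger than the median differences given above. Whether changes of the size seen in the members would be called was not tested. Introns were named if they belonged to a CLK exon 4 cassette, were called, or had, within a gene, the smallest p for knockdown over all libraries or the largest SD between group means. The SRPK1 intron over exon 7, SRPK2 exon 15 and alternative exon, CLK1 exon 7, CLK2 acceptor, DYRK1A unannotated acceptor and DYRK1B 36-base exon introns and the main SRPK1 route were described beyond this rule, after their values were seen. The members and lists were chosen with earlier results of these data known.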

Additional observations from a re-analysis of the deposited data

How the results depend on the processing

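In the 6 comparisons of the design, 0 member introns were called by limma under every alternative run: offsets of 0.001 and 0.05, no filter on the mean, a mean from 0.05 to 0.95, PSI without transformation, only the groups compared, a replicate block, eBayes with trend and robust, only features with 18 different values, and each of the 18 libraries left out. The CLK1 exon 4 share was called under none of them, nor with the smaller flanking PSI or the PSI of the skipping intron alone. Its difference (log2 odds) turned sign only when single libraries were left out, with ranges from -0.26 to 0.082 for MYCN alone, -0.073 to 0.24 for knockdown with MYCN repressed, -0.12 to 0.19 for MYCN and knockdown together and -0.13 to 0.21 for the interaction. It kept its sign for knockdown with MYCN expressed (0.0078 to 0.26) and over all libraries (0.02 to 0.17). Samples with the same replicate number did not deviate together over all tested introns (mean correlation 0.0061, lowest -0.051, highest 0.064, over 45 pairs). Whether samples of the same number shared a culture or transfection was not tested. With the replicate block the CLK1 difference was -0.10 for MYCN alone, 0.06 and 0.11 for knockdown with MYCN repressed and expressed, 0.0088 for both together, 0.05 for the interaction and 0.08 for knockdown over all libraries, and 0 member introns were called.

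The comparison of all MYCN+ with all MYCN- libraries was added after seeing the data. Its 1 called member intron, in SRPK1, stayed called without any single library (log2 odds -0.89 to -0.75) and with the block. The count was 0 with a mean from 0.05 to 0.95, where this intron was not tested, and 0 without transformation, where the cause was not tested. Its difference was -1.21 with an offset of 0.001 and -0.37 with 0.05, so its size depends on the offset. Without read numbers, low PSI values and clusters with repeated values cannot be weighted by depth.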
